A study of Mus musculus with 8 samples.

Results

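Integrins are receptors made of 1 alpha and 1 beta subunit that anchor cells to the surrounding matrix, and the pair decides which matrix protein is bound. The 10 integrin subunit genes Itga1, Itga2, Itga5, Itga6, Itga9, Itgav, Itgb1, Itgb3, Itgb4 and Itgb5 were chosen by name and read as rows of a matrix of 28692 gene symbols. They were described across lymphatic endothelial cells (LEC) and blood endothelial cells (BEC) of a mouse melanoma. All 10 were present in the matrix, and 8 of them reached 10 UMIs per 1000000 UMIs (CPM) in at least 1 of the cell types.

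The cells came from C57BL/6N mice, 10 in number, that carried implanted pieces of MT-ret melanoma on the ventral flank. LEC and BEC, 10000 of each, were separated by fluorescence-activated sorting and taken through droplet single-cell sequencing of transcript 3′ ends, with a unique molecular identifier (UMI) to count each captured molecule once. No normal tissue and no treatment was part of the design, so every comparison is between vessel lineages of these tumors or between subsets of a lineage. The labels list 4 libraries per sort, but the matrix names only the sort of each cell, so each sort was 1 sample and no test between sorts was possible.

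In vessels, integrins containing Itgb1 hold the endothelium to its basement membrane. Subunits that recognise the short RGD motif of fibronectin and vitronectin, such as Itga5 and Itgav with Itgb3 or Itgb5, are known from growing tumor vessels. In mice Itga9 is known for its part in lymphatic valves, and Itgb4, which pairs only with Itga6, is best known from the hemidesmosomes of epithelium.

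Depth differed between the sorts, with 59273049 UMIs over 4407 cells in LEC (median 11000 per cell) and 71304111 UMIs over 3228 cells in BEC (median 19416), and 34 cell barcodes occurred in both sorts. A cell was assigned to a lineage when at least 3 of its markers were detected at 5000 UMIs per cell and no more than 2 of the other lineage's. This gate kept 3572 LEC of the LEC sort (81.1%) and 3074 BEC of the BEC sort (95.2%). The LEC markers summed to 4459 CPM in gated LEC and 52.7 CPM in gated BEC, the BEC markers to 147 CPM in gated LEC and 6068 CPM in gated BEC, and no marker of either list was at 0. The LEC sort also held 224 melanocytic cells (5.08%) and 84 gated BEC (1.91%), and the BEC sort held 34 stromal cells (1.05%) and 11 gated LEC (0.341%). Levels below are CPM of summed UMIs in gated cells of their own sort unless all cells are named. Brackets hold exact 95% intervals that hold counting error alone and leave out variation among mice or libraries.

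The integrin genes split between the lineages. Itga1, Itga2, Itga5, Itga6, Itgb1 and Itgb3 were lower in LEC than in BEC, and Itga9, Itgav, Itgb4 and Itgb5 were higher. Of the 8 genes that reached 10 CPM, 4 had a 2-fold or larger difference, with Itga9, Itgav and Itgb4 higher in LEC and Itga1 lower. The call of Itga9 rested on a log2 ratio of 1.001, and 8 of 9 alternative settings put it under 2-fold, at 0.85 to 0.98. These 9 leave out the 11 gated LEC of the BEC sort, where its ratio of LEC over BEC was 0.455, from 2 UMIs. A 2-fold or larger difference was found for 21.2% of all 8263 genes at 10 CPM or more, with 11.6% higher and 9.6% lower. In all cells of the sorts, where 20.4% of 8307 genes were called (11.7% higher and 8.76% lower), the count was 3 of 8, and Itga9 was 1.71-fold higher (1.61 to 1.82). The median log2 ratio of LEC over BEC was -0.27 over the 8 integrin genes and 0.11 over all genes in gated cells. Scaling by median-of-ratios size factors lowered every log2 ratio by 0.08 and turned no direction.

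**Figure D1:**
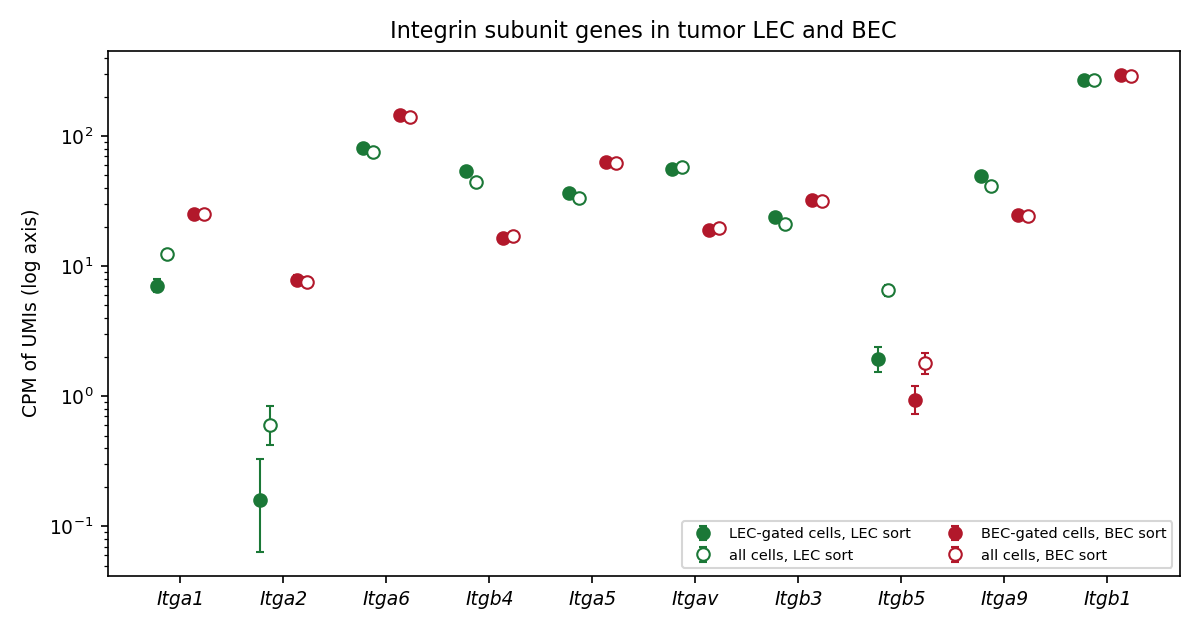
Level of each integrin gene in CPM (log axis) in LEC (green) and BEC (red), in lineage-gated cells (filled) and all cells of a sort (open), with exact 95% Poisson intervals. Itga2 and Itga1 lie lower in LEC than in BEC, Itgav, Itgb4 and Itga9 lie higher, and Itgb1 is the most abundant gene in both.

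The collagen-binding alpha subunits lay furthest below their BEC level in LEC. Itga1 (chr13:114953096-115101964, minus strand, GRCm38), which pairs with Itgb1 to bind basement membrane collagen, was at 7.08 CPM in LEC (6.32 to 7.91) and 25.0 CPM in BEC (23.9 to 26.3). It was 3.54-fold lower in LEC (3.13 to 4.0). Itga2 (chr13:114833081-114932100, minus strand), its direct neighbor on the chromosome, encodes the alpha subunit of another Itgb1-containing collagen receptor. Itga2 gave 7 UMIs in LEC and 534 UMIs in BEC. Its level was 0.159 CPM in LEC (0.064 to 0.327) and 7.88 CPM in BEC (7.22 to 8.58), 49.6-fold lower in LEC (23.9 to 124). A single cell held 42.9% of the LEC UMIs of Itga2, and its level in LEC was 2.02% of that in BEC. For the 7 BEC markers, which the gate itself limits in LEC, this share ran from 0.168% for Nrp1 to 6.83% for Emcn. Without the 1% of cells with the most Itga1 UMIs, its log2 ratio was -2.51 in place of -1.82. Itga1 had a UMI in 127 LEC and 675 BEC without thinning. That setting thus removed a larger part of the LEC with a UMI, which tends to lower the ratio. In all cells the differences were smaller, 2.02-fold for Itga1 (1.85 to 2.20) and 12.5-fold for Itga2 (8.89 to 18.0). Melanocytic cells of the LEC sort had Itga1 at 37.3 CPM, and without melanocytic, stromal and leukocyte cells the log2 ratio of Itga1 was -1.39 in place of -1.01. Itga1 overlaps the gene Pelo on the same strand, which had 9572 UMIs over both sorts, and how reads in the overlap were counted was not tested. Platelets also express Itga2, and platelet markers summed to 32.4 CPM in LEC, against 5.71 CPM in BEC, with none of the 4 at 0. The part of platelet RNA in the levels of Itga2 was not tested.

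The promoters of Itga1 and Itga2 are shown because these adjacent genes were both lower in LEC, and that of Itgav because it was the alpha subunit gene with the highest ratio of LEC over BEC. The sequences are RefSeq entries of build GRCm38.p6, which held 7 of the 10 genes, and run 5′ to 3′ on the strand of the gene from 250 bases before to 50 bases after its start. They lie at chr13:115101915-115102214 (minus) for Itga1, chr13:114932051-114932350 (minus) for Itga2 and chr2:83724147-83724446 (plus) for Itgav. Capitals mark matches, on either strand, to GGGCGG (the GC box), GGAAGT (the core bound by ETS factors), ACGTG (the core of the hypoxia response element), AACAAT (the core bound by SOX factors) and CACCC (a box bound by Klf factors).
Itga1: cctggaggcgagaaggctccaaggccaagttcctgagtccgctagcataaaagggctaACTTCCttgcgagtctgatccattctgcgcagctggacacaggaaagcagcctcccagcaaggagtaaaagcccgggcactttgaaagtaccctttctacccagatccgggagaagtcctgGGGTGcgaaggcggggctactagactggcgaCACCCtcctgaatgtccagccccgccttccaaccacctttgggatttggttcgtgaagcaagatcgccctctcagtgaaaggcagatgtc
Itga2: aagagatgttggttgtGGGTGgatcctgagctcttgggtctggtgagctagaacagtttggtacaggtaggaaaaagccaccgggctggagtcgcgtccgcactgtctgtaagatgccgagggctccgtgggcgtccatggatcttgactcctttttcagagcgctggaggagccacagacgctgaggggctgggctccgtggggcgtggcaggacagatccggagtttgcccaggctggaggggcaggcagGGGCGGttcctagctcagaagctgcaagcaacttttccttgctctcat
Itgav: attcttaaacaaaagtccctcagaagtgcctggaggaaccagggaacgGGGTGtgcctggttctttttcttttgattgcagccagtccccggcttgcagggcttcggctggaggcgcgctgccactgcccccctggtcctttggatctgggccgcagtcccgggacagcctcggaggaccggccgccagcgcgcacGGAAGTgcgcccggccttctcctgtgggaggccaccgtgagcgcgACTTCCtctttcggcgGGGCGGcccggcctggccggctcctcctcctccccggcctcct

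In these windows no capitals of different motifs overlapped. The Itga1 promoter had 1 match to GGAAGT and 2 to CACCC. That of Itga2 had 1 match each to GGGCGG and CACCC. The Itgav promoter had 2 matches to GGAAGT and 1 each to GGGCGG and CACCC. Among 32851 RefSeq promoters of the same length, 35.7% held GGGCGG, 23.8% GGAAGT, 19.6% ACGTG, 10.7% AACAAT and 57.5% CACCC, so matches of this kind were common. The share of G and C was 56.7% for Itga1, 59.3% for Itga2 and 67.3% for Itgav, with a median of 52.7% over all promoters. A match describes the letters only.

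The laminin-binding pair went in opposite directions. Itga6 (chr2:71745616-71858416, plus strand), the alpha subunit of laminin receptors with either Itgb1 or Itgb4, was at 80.7 CPM in LEC (78.1 to 83.4) and 145 CPM in BEC (142 to 148), 1.79-fold lower in LEC (1.73 to 1.87). Itgb4 (chr11:115974709-116008412, plus strand), the beta subunit with a long cytoplasmic tail that links laminin to intermediate filaments, was at 53.8 CPM in LEC (51.6 to 56.0) and 16.3 CPM in BEC (15.4 to 17.3). It was 3.29-fold higher in LEC (3.06 to 3.54). Keratinocytes express both genes, and of the 5 keratinocyte markers 4 were at 0 in LEC and all 5 in BEC.

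Among the RGD-binding subunits only Itgav and the sparse Itgb5 were higher in LEC. Itgav (chr2:83724397-83806916, plus strand), the shared alpha subunit of vitronectin receptors, was at 55.6 CPM in LEC (53.4 to 57.9) and 18.9 CPM in BEC (17.9 to 19.9), 2.95-fold higher in LEC (2.75 to 3.16). Its beta partner Itgb3 (chr11:104608000-104670476, plus strand) was at 24.0 CPM in LEC (22.6 to 25.5) and 32.3 CPM in BEC (31.0 to 33.7), 1.35-fold lower in LEC (1.25 to 1.45). Itga5 (chr15:103344286-103366763, minus strand), which with Itgb1 forms the main fibronectin receptor, was at 36.5 CPM in LEC (34.7 to 38.3) and 62.9 CPM in BEC (61.0 to 64.8), 1.72-fold lower in LEC (1.63 to 1.82). Itgb5 (chr16:33829665-33949338, plus strand), another partner of Itgav, had only 85 UMIs in LEC and 64 UMIs in BEC, that is 1.93 CPM (1.54 to 2.39) and 0.944 CPM (0.727 to 1.21).

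Other cells of the sorts carried Itgav and Itgb5. Melanocytic cells of the LEC sort had Itgav at 79.7 CPM (73.0 to 86.8) and Itgb5 at 22.2 CPM (18.7 to 26.1). The melanocytic marker sum in gated LEC was 157 CPM, 0.692% of that in the melanocytic cells, and in gated BEC 24.2 CPM. Itgb5 in all cells, melanocytic ones included, was at 6.55 CPM for LEC, against 1.80 CPM for BEC. The stromal marker sum was 184 CPM in gated LEC and 38.4 CPM in gated BEC. Dcn alone gave 160 CPM of it in LEC, against 0.826 CPM in BEC. Rgs5 (0.386 CPM in LEC, 14.2 CPM in BEC), Acta2 (17.9 and 20.8 CPM) and Pdgfrb (0.0908 and 0.531 CPM) were lower in LEC. The remaining stromal markers were higher in LEC but at no more than 2.22 CPM. Stromal cells of the BEC sort had Itgb5 at 53.7 CPM. The part of these cells in the Itgb5 level of gated cells was not tested.

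Itga9 (chr9:118606690-118901003, plus strand), which with Itgb1 binds tenascin C, Emilin1 and a splice form of fibronectin, was at 49.6 CPM in LEC (47.6 to 51.8) and 24.8 CPM in BEC (23.6 to 26.0). It was 2.0-fold higher in LEC (1.88 to 2.13), just past the 2-fold limit. Itgb1 (chr8:128685654-128733200, plus strand), the common beta subunit, had the most UMIs of the 10 genes, counted at the 3′ end and so not scaled by transcript length, at 272 CPM in LEC (267 to 277) and 293 CPM in BEC (289 to 297). Its ratio of LEC over BEC was 0.93 (0.909 to 0.951), the smallest difference of the 10. Antisense transcripts overlap Itga9 (Gm2415, 225 UMIs over both sorts) and Itgb4 (B230344G16Rik, 117 UMIs), far fewer than the UMIs of the integrin genes.

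The same contrast could be read inside 1 sort, between cells that share their libraries. In the LEC sort the 3572 gated LEC were set against the 84 gated BEC. Itgav was at 55.6 CPM in these LEC and 22.6 CPM in these BEC, 2.46-fold higher in LEC (1.79 to 3.48). Itgb4 was at 53.8 CPM in LEC, against 20.2 CPM in BEC, 2.65-fold higher (1.89 to 3.84), and Itga9 at 49.6 CPM in LEC, against 26.8 CPM in BEC, 1.85-fold higher (1.38 to 2.55). For Itga1 the ratio of LEC over BEC was 0.36 (0.25 to 0.53), with 7.08 CPM in LEC, against 19.7 CPM in BEC. Itga2 had 7 UMIs in LEC and 8 UMIs in the far fewer BEC, a ratio of 0.03 (0.01 to 0.11). Itga6 had a ratio of 0.59 (0.51 to 0.67), Itgb1 of 0.809 (0.743 to 0.881) and Itgb3 of 0.746 (0.567 to 0.9995). For Itga5 the ratio of 0.85 (0.67 to 1.09) did not differ from 1 beyond counting error. Nor did that of Itgb5, 1.62 (0.435 to 13.6), from 2 UMIs in these BEC. In the BEC sort, the 11 gated LEC had 90.3 CPM of Itgav and 96.0 CPM of Itgb4, against 18.9 and 16.3 CPM in the 3074 gated BEC, with ratios of 4.79 (2.73 to 7.80) and 5.88 (3.41 to 9.45). Itga9 went the other way there, with 2 UMIs and 11.3 CPM in these LEC, against 24.8 CPM in BEC, a ratio of 0.455 (0.0551 to 1.65), and Itgb3 had a ratio of 1.22 (0.491 to 2.52). Neither differed from 1 beyond counting error, nor did Itga1 at 0.451 (0.0546 to 1.63), and Itga2 had 0 UMIs in the 11 cells. Itga6 and Itga5 were lower in these LEC, with ratios of 0.584 (0.327 to 0.964) and 0.359 (0.0978 to 0.920). Few cells carried these values. The richest cell for each gene held 81.25% of the 16 Itgav UMIs and 35.3% of the 17 Itgb4 UMIs of the 11 LEC. It held 33.3% of the 15 Itga6 UMIs and 75% of the 4 Itga5 UMIs. The Itgav ratio in the BEC sort thus rested largely on 1 cell.

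The integrin mix of each lineage followed from these levels. The 6 alpha genes summed to 230 CPM in LEC, against 284 CPM in BEC, and the 4 beta genes to 352 CPM in LEC, against 342 CPM in BEC. Itga6 made up 35.1% of the alpha UMIs in LEC (34.2 to 36.1%) and 51.0% in BEC (50.3 to 51.7%). Itgav and Itga9 followed in LEC with 24.2% and 21.6%, whereas they made up 6.64% and 8.72% in BEC. Itga5 held 15.9% in LEC and 22.1% in BEC, Itga1 3.08% in LEC and 8.80% in BEC, and Itga2 0.0691% in LEC and 2.77% in BEC. Of the beta UMIs, Itgb1 held 77.3% in LEC and 85.5% in BEC, Itgb4 15.3% in LEC and 4.77% in BEC, and Itgb3 6.82% in LEC and 9.45% in BEC. These are shares of UMIs, each of which counts a molecule at its 3′ end whatever its length, and neither pairing of the proteins nor their surface level was measured.

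**Figure D2:**
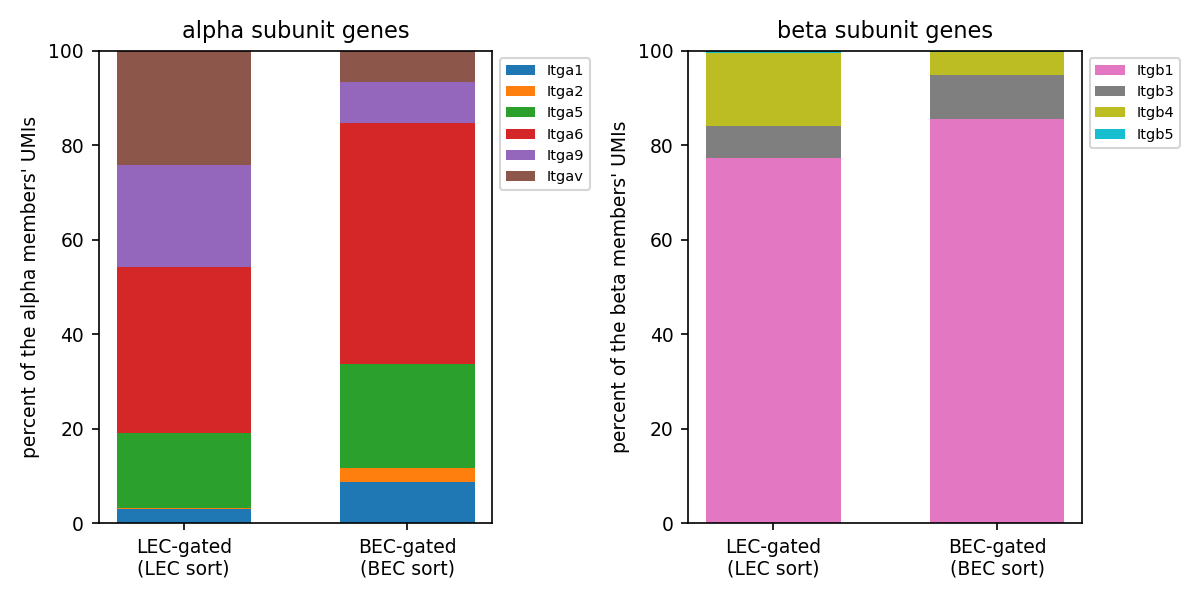
Percent of the UMIs of the 6 alpha genes (left) and the 4 beta genes (right) held by each gene in gated LEC and gated BEC, as stacked bars. Itgav and Itga9 take a larger part of the alpha bar and Itgb4 of the beta bar in LEC than in BEC.

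Shares of cells with a UMI gave the same directions once every cell was thinned to 5000 UMIs. Itgb1 was detected in 58.7% of LEC (57.1 to 60.4%) and 68.2% of BEC (66.6 to 69.9%), and Itga6 in 21.1% of LEC and 41.2% of BEC. Itgav was detected in 16.1% of LEC (14.9 to 17.3%) and 7.29% of BEC (6.39 to 8.26%), and Itgb4 in 15.5% of LEC (14.3 to 16.7%) and 6.44% of BEC (5.60 to 7.37%). Itga9 was detected in 13.6% of LEC and 10.2% of BEC. Itgb5 was detected in 0.476% of LEC (0.277 to 0.761%) and 0.325% of BEC (0.156 to 0.597%), with overlapping intervals. The order of Itgb5 turned at 2000 UMIs per cell (0.196% of LEC, 0.228% of BEC). It also turned without thinning (0.896% of LEC, 1.04% of BEC). Itga1 was found in 2.44% of LEC and 9.56% of BEC, and Itga2 in 0.0280% of LEC (0.001 to 0.156%), a single cell, and 2.80% of BEC (2.24 to 3.44%). Without thinning the shares were 22.1% of LEC and 16.0% of BEC for Itgav, 22.3% of LEC and 12.9% of BEC for Itgb4, and 19.3% of LEC and 20.9% of BEC for Itga9, whose order then turned with the greater depth of BEC. No cell type of the sorts was known to lack all of these genes. Melanocytic cells of the LEC sort, with a median of 30072.5 UMIs, had a share of 1.79% each for Itgb4 and Itgb3 at 5000 UMIs.

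Within each lineage, cells were placed in subsets by the mean standardized level of a few marker genes, with a minimum of 0.5, and cycling cells were set aside first. The subsets are ranges of a score named for their leading genes, and 388 of 3456 noncycling LEC and 375 of 2877 noncycling BEC lay within 0.1 of that minimum. No integrin gene was used in a gate. Over the 12 subsets there were 91 pairs of a subset and an integrin gene at 10 CPM or more, and in 8 of them the subset was at least 2-fold apart from the other gated cells of its sort. Over all genes this held for 6401 of 94101 such pairs (6.8%), so the integrin genes' share was near that of all genes. The 8 pairs fell in 5 subsets, and 4 of the 8 concerned Itgb4 or Itgav.

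In LEC the subset that stood out held cells with the neuropeptide gene Npy, Pgf, Egln3 and Ndufa4l2 (336 cells). Itgav was at 112 CPM in this subset (103 to 123) and 49.5 CPM in the other LEC, 2.27-fold higher (2.05 to 2.51). Itgb4 was at 17.7 CPM in the subset (13.9 to 22.1) and 57.7 CPM in the other LEC, 3.27-fold lower (2.60 to 4.16). The log2 ratio of Itgb4 was -1.71, and -2.76 when Leiden clusters replaced the score. The cluster used in place of the subset held 279 cells, of which 68.8% were LEC-gated, so the 2 values describe different sets of cells. These 2 of 7 integrin genes were called where 10.2% of all genes were. Itgb3 was at 33.7 CPM in the subset and 22.9 CPM in the other LEC, 1.47-fold higher (1.22 to 1.75). That rise was shared by the Tppp3 subset, with Itgb3 at 32.1 CPM, 1.44-fold above the other LEC (1.24 to 1.66). Itga6 was 1.21-fold lower in the Npy subset (1.07 to 1.36). Itgav held 41.4% of the alpha UMIs of the subset and Itga6 25.1%, the reverse of their order in every other LEC subset. In this subset the LEC markers summed to 4180 CPM, the melanocytic markers to 130 CPM and the stromal markers to 285 CPM, and markers of the other LEC subsets had a median of 0 per cell.

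In the remaining LEC gates 0 of 7 integrin genes were 2-fold apart from the other LEC, where the share of all genes called was 2.92% for Cd24a, 3.54% for Tppp3, 4.02% for Lsr, 5.73% for Cd74 and 13.4% for cycling cells. Itgb4 still ranged widely. It was highest, at 83.5 CPM (76.3 to 91.2), in the Lsr subset, whose cells are marked by the junction gene Lsr, Foxp2 and Postn, and 1.39-fold (1.22 to 1.58) above the Cd24a subset, next in order at 60.04 CPM. The Tppp3 subset followed with 57.0 CPM, not apart from Cd24a beyond counting error, then Cd74 with 37.1 CPM and cycling cells with 36.3 CPM. From the Lsr subset to the Npy subset the range was 4.73-fold (3.71 to 6.10). For Itgav the order was Npy, then Cd74 at 66.4 CPM, Lsr at 50.3 CPM, Cd24a at 50.1 CPM, cycling at 45.8 CPM and Tppp3 at 41.2 CPM, with the last 4 not separated between neighbors. Itga9 was highest in the Tppp3 subset, at 60.7 CPM (55.2 to 66.6), and between 35.9 and 46.5 CPM in the others.

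Among the other integrin genes, Itgb1 was nearly level across LEC subsets. It lay between 261 CPM in the Cd24a subset and 281 CPM in the Cd74 subset, a range of 1.08-fold (0.99 to 1.17) that counting error could hold. Itga6 ran from 64.7 CPM in cycling LEC to 94.3 CPM in the Lsr subset, and Itga5 from 29.0 CPM in the Cd24a subset to 45.2 CPM in the Lsr subset. Itgb3 ran from 15.6 CPM in the Cd24a subset to 33.7 CPM in the Npy subset. The Npy and Tppp3 subsets were not apart in Itgb3 beyond counting error (1.05-fold, 0.846 to 1.30). Itga1 lay between 6.50 and 7.96 CPM in the noncycling subsets, but was at 1.58 CPM in cycling LEC, from 4 UMIs, against 7.42 CPM in the other LEC, 4.70-fold lower (1.82 to 17.4). Itga2 had 3 UMIs in the Cd24a subset, all of 1 cell, 1 UMI in the Lsr subset and 0 UMIs in the other 4 gates, where the upper bounds were 0.51 to 1.46 CPM.

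**Figure D3:**
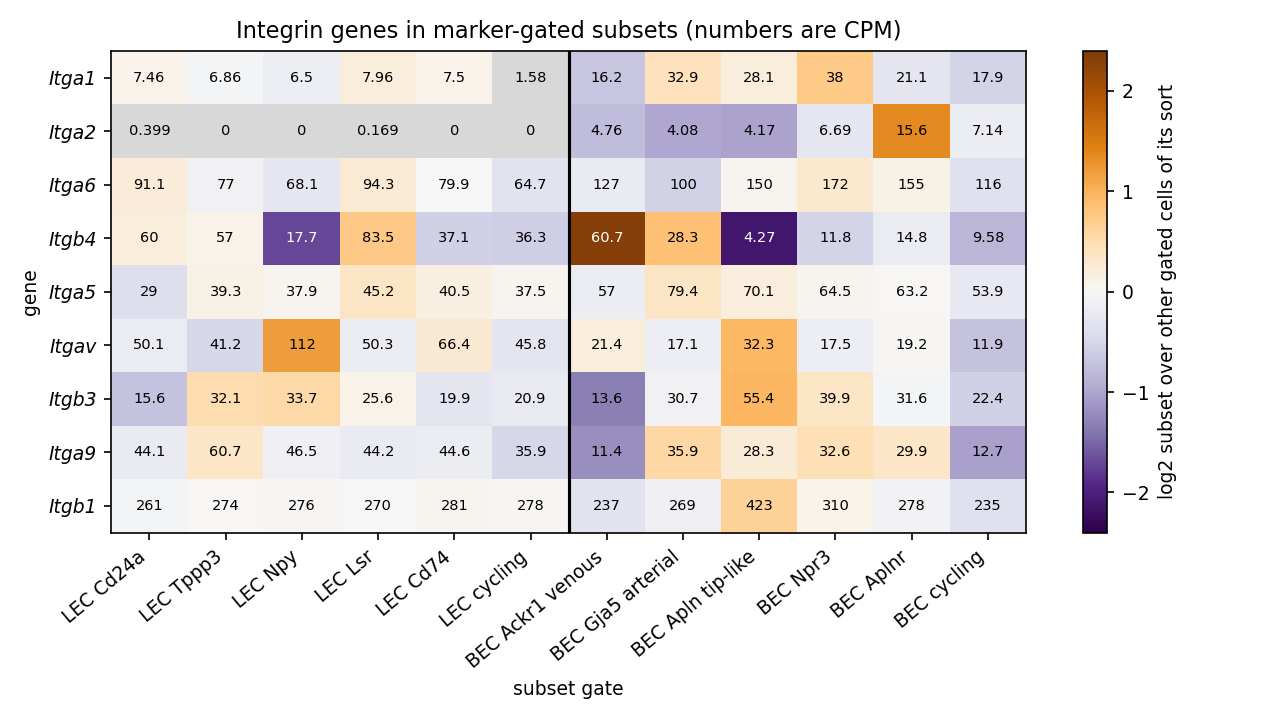
Heat map of 9 integrin genes (rows; Itgb5 is left out as sparse) in 6 LEC and 6 BEC subset gates (columns, split by the black line). Numbers are CPM, color is the log2 ratio of the subset over the other gated cells of its sort, and gray marks fewer than 10 UMIs. Itgb4 in the Ackr1 venous subset of BEC and Itgav in the LEC Npy subset are among the highest ratios, and Itgb4 in the Apln tip-like subset and the LEC Npy subset the lowest.

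In BEC the venous subset, marked by Ackr1, Selp, Sele and Vwf (289 cells), had a distinct profile. Itgb4 was at 60.7 CPM in this subset (54.6 to 67.4) and 12.1 CPM in the other BEC, 5.01-fold higher (4.41 to 5.69). That level was near the 53.8 CPM of LEC as a whole. Itgb3 was at 13.6 CPM in the subset (10.8 to 16.9) and 34.1 CPM in the other BEC, 2.51-fold lower (2.0 to 3.17), and Itga9 at 11.4 CPM in the subset (8.83 to 14.5) and 26.1 CPM in the other BEC, 2.29-fold lower (1.79 to 2.97). These were 3 of 8 integrin genes, where 11.2% of all genes were called. Itgb4 made up 19.3% of the beta UMIs of the subset. LEC markers summed to 25.2 CPM there, against 52.7 CPM in all gated BEC, and BEC markers to 3480 CPM. Flt4 alone gave 48.0 CPM of the LEC marker sum in all gated BEC, so that sum mainly reads Flt4. The part of LEC RNA in the subset was not tested. Of the markers of other BEC subsets, Aplnr alone had a median per cell above 0.

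The tip-like subset of BEC, marked by Apln, Tnfrsf9, Kit and Cxcr4 (401 cells), showed the reverse for Itgb4 and Itgb3. Itgb4 was at 4.27 CPM in the subset (3.07 to 5.80) and 18.3 CPM in the other BEC, 4.29-fold lower (3.14 to 6.01). Its log2 ratio was -2.10, and -2.91 without the 1% of the subset's cells with the most Itgb4 UMIs. The other BEC were not trimmed, so this setting lowers the subset's level by its nature and does not test the call. It was the only integrin gene of 8 called here, where 5.95% of all genes were. Itgb3 was at 55.4 CPM in the subset (50.8 to 60.4) and 28.5 CPM in the other BEC, 1.94-fold higher (1.76 to 2.15). Itgav was at 32.3 CPM in the subset (28.8 to 36.1) and 16.7 CPM in the other BEC, also 1.94-fold higher (1.70 to 2.21), and both were just short of the 2-fold limit. Itgb1 reached its highest level of all 12 subsets, 423 CPM (410 to 437), 1.56-fold above the other BEC (1.51 to 1.62). Between the venous and the tip-like subset Itgb4 spanned 14.2-fold (10.3 to 20.2) and Itgb3, in the opposite order, 4.07-fold (3.22 to 5.22).

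**Figure D4:**
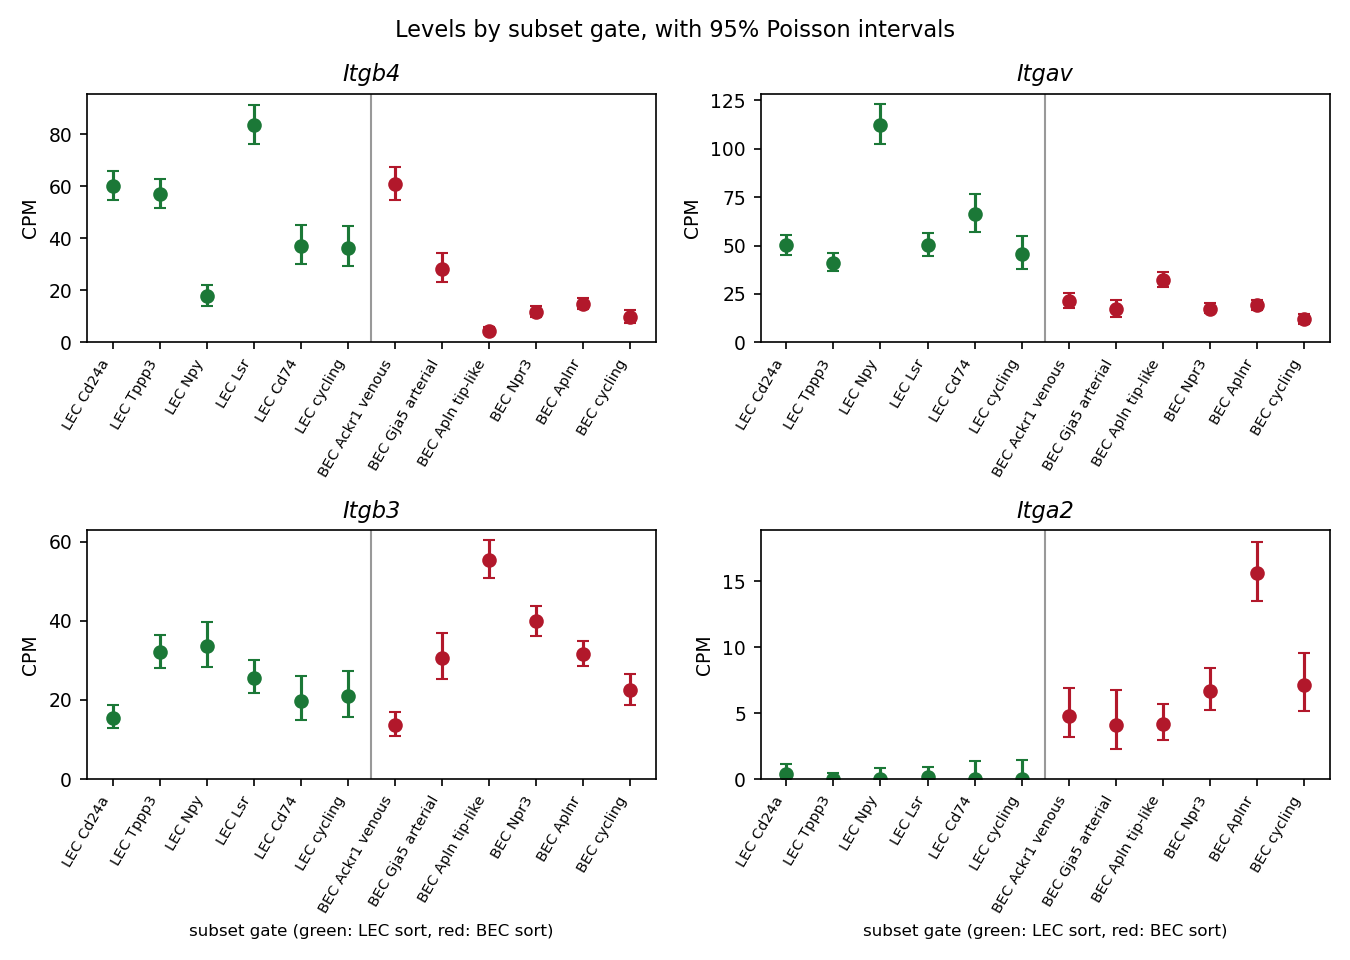
Level in CPM of Itgb4, Itgav, Itgb3 and Itga2 in each LEC (green) and BEC (red) subset gate, with exact 95% Poisson intervals. Itgb4 is highest in the LEC Lsr and BEC Ackr1 venous subsets, Itgav in the LEC Npy subset, Itgb3 in the BEC Apln tip-like subset and Itga2 in the BEC Aplnr subset.

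Itga2 was highest in the subset marked by the apelin receptor gene Aplnr and by Ramp3 (592 cells), which held 199 of its 534 UMIs in gated BEC. It was at 15.6 CPM there (13.5 to 18.0) and 6.09 CPM in the other BEC, 2.57-fold higher (2.14 to 3.07), and 6.08% of its cells had a UMI at 5000 UMIs per cell. The other BEC subsets lay between 4.08 CPM in the arterial subset and 7.14 CPM in cycling BEC. This was 1 of 9 integrin genes, where 3.02% of all genes were called. In cycling BEC (197 cells) Itga9 was at 12.7 CPM, against 26.0 CPM in the other BEC, 2.05-fold lower (1.64 to 2.61), which was 1 of 8 integrin genes where 10.3% of all genes were called.

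In the arterial subset, marked by Gja5, Gja4, Bmx, Sema3g and Aqp7 (209 cells), and in the Npr3 subset (512 cells) no integrin gene was 2-fold apart, where 7.11% and 3.79% of all genes were. Arterial cells had the highest Itga5 of the BEC subsets, at 79.4 CPM (70.5 to 89.0), and the highest Itga9, at 35.9 CPM. Neither was apart from the next subset beyond counting error, with ratios of 1.13 (0.983 to 1.30) and 1.10 (0.894 to 1.35). Arterial cells had the lowest Itga6, 1.72-fold below the Npr3 subset. Itgb4 was there at 28.3 CPM, second to the venous subset. The Npr3 subset, marked by Npr3, Vegfc and Dkk2, had the highest Itga6, at 172 CPM (164 to 180), and the highest Itga1, at 38.0 CPM (34.4 to 41.9). For Itga1 it was not apart from the arterial subset beyond counting error (1.16-fold, 0.941 to 1.43). Itga1 was lowest in the venous subset, at 16.2 CPM, 2.35-fold below the Npr3 subset (1.88 to 2.97), but not apart from cycling BEC beyond counting error. Of 40 neighboring pairs in the orders of 8 integrin genes, 31 in LEC and 23 in BEC were not apart beyond counting error.

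By the correlation of log2(CPM + 1) over the 12 subsets, among 9125 genes, the patterns most like that of Itgb4 were those of Stox2 (Pearson's r = 0.97), Hyal2 (0.97) and Foxp1 (0.94). For Itgav they were Daam1 (0.97), Acp5 (0.97) and Rnf149 (0.96), and for Itgb3 Scamp5 (0.89), Ubl5 (0.87) and Mmp14 (0.87). For Itga2 they were Asb4 (0.98), Endou (0.98) and Pde4d (0.98), for Itga1 Ggta1 (0.97), Ddx54 (0.96) and Slc9a3r1 (0.96), and for Itga9 Reep3 (0.97), Chmp5 (0.96) and Hic1 (0.95). Itga5 was most like Timm10b (0.98), Fam217b (0.97) and Hoxb5 (0.97), Itga6 like Grb10 (0.95), Pygb (0.94) and Dgkz (0.94), and Itgb1 like Map2k6 (0.91), Pelo (0.84) and Anxa5 (0.82). Among the integrin genes, r was highest between Itga2 and Itga6, at 0.89, and lowest between Itga2 and Itgav, at -0.86. The 12 subsets share libraries and depth within each sort and fall apart by sort, so these values are descriptions of these cells.

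Of 18 other integrin-related genes only 3 reached 10 CPM, and 2 of them were at least 2-fold lower in LEC. For this list and those that follow, the share of all genes at least 2-fold apart in gated cells was 21.2% and the median log2 ratio 0.11. Itga3, another laminin-binding alpha subunit, was at 10.4 CPM in LEC, against 31.5 CPM in BEC, 3.02-fold lower in LEC (2.73 to 3.35). Itga2b, which with Itgb3 forms the fibrinogen receptor of platelets, was at 4.70 CPM in LEC, against 19.9 CPM in BEC, 4.25-fold lower in LEC (3.67 to 4.94), and the part of platelet RNA in it was not tested. Itgb1bp1, whose protein binds the tail of Itgb1, was at 68.1 CPM in LEC, against 57.2 CPM in BEC. The leukocyte gene Itgb2 was at 2.47 CPM in LEC, against 0.236 CPM in BEC, and leukocyte markers summed to 12.6 CPM in LEC, against 9.93 CPM in BEC.

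Of 27 genes of integrin adhesion and signalling, 24 reached 10 CPM. Of these, 2 were higher in LEC by 2-fold or more and 4 lower, with a median log2 ratio of -0.21. Lims2, an adaptor of integrin-linked kinase, was at 1.61 CPM in LEC, against 113 CPM in BEC, 70.3-fold lower in LEC (55.7 to 90.1). Tns3, a tensin that binds beta tails, was at 5.42 CPM in LEC, against 25.7 CPM in BEC, 4.73-fold lower in LEC (4.13 to 5.44). Tln2, a talin that activates integrins, was at 14.3 CPM in LEC, against 2.46 CPM in BEC, 5.79-fold higher in LEC (4.88 to 6.91). The remaining 3 past 2-fold, Lims1, Ilk and Fyn, were picked out after their values were seen. Lims1, another adaptor of integrin-linked kinase, was at 372 CPM in LEC, against 136 CPM in BEC, 2.73-fold higher in LEC (2.67 to 2.81). The kinase gene Ilk was 2.23-fold lower in LEC (2.15 to 2.31) and the kinase gene Fyn 3.22-fold lower (3.07 to 3.39). The GTPase genes Rap1a and Rap1b, which act upstream of talin, were at 329 and 365 CPM in LEC and 430 and 428 CPM in BEC, and the Rap-binding gene Rasip1 was 1.92-fold lower in LEC. Cd47, an integrin-associated receptor of thrombospondin, was at 707 CPM in LEC, against 437 CPM in BEC, 1.62-fold higher in LEC.

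Tetraspanins, membrane proteins that organise laminin-binding integrins, were listed together with Plec and Dst, plakins that link Itgb4 to intermediate filaments. All 7 genes reached 10 CPM, 3 were higher in LEC by 2-fold or more and 1 lower, and their median log2 ratio was 0.64. Cd9 was at 3109 CPM in LEC, against 598 CPM in BEC, 5.20-fold higher in LEC (5.14 to 5.25), and Cd63 was 6.45-fold higher (6.35 to 6.55). Cd81 was at 924 CPM in LEC, against 3372 CPM in BEC, 3.65-fold lower in LEC (3.61 to 3.69). Cd151, the closest partner of Itga6, was at 305 CPM in LEC, against 514 CPM in BEC, 1.69-fold lower in LEC (1.65 to 1.72).

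Matrix genes that encode integrin ligands also divided. Of 27, 22 reached 10 CPM, with 6 at least 2-fold higher in LEC and 8 lower, and the median log2 ratio was -0.30. Fibronectin (Fn1) was at 546 CPM in LEC, against 76.1 CPM in BEC, 7.18-fold higher in LEC (6.96 to 7.40). The RGD-containing osteopontin gene Spp1 was at 41.7 CPM in LEC, against 2.63 CPM in BEC, and tenascin C (Tnc) at 30.7 CPM in LEC, against 7.49 CPM in BEC. Cyr61, a secreted Itgav ligand, was at 1250 CPM in LEC, against 432 CPM in BEC. Several genes of basement membrane components were lower in LEC. The collagen genes Col4a1 and Col4a2 were 4.05-fold (3.96 to 4.14) and 5.36-fold (5.23 to 5.49) lower, the laminin gene Lama5 11.9-fold (9.97 to 14.4), Nid2 4.42-fold (4.14 to 4.73) and the perlecan gene Hspg2 4.09-fold (3.93 to 4.25). Others of the list did not follow, and of those seen to be higher in LEC the laminin genes Lama4 and Lamb2 had ratios of LEC over BEC of 1.33 (1.29 to 1.37) and 1.19 (1.12 to 1.28). Adam15, whose protein carries an RGD sequence in humans, was 5.41-fold lower in LEC (5.15 to 5.69), and Vwf was at 0.635 CPM in LEC, against 76.1 CPM in BEC. Mfge8, which binds Itgav integrins, was at 183 CPM in LEC, against 641 CPM in BEC, and Tgfb1, whose latent form is bound by Itgav, at 392 CPM in LEC, against 439 CPM in BEC.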

How the data were processed

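The authors deposited 1 matrix of raw UMI counts per gene symbol and cell, made with Cell Ranger 2.1.1 on mouse build mm10 per the submitters' processing notes, from 10x Chromium libraries read at transcript 3′ ends per the labels' protocols. For cell filtering, criteria are not given in the sources used here. Column names gave the sort and no library, so the 4 libraries of a sort were summed as 1 sample, no test was run and no p-value is given. UMIs of a gene over cells were scaled to the total UMIs of those cells (CPM). CPM have exact Poisson, ratios exact conditional binomial and shares exact Clopper-Pearson intervals at 95%. A gene was called when at least 2-fold apart and at 10 CPM or more in the higher group.

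The genes, marker lists and gene lists were chosen with earlier results of these data known. The gates used LEC markers Prox1, Lyve1, Pdpn, Mmrn1, Reln and Flt4 and BEC markers Flt1, Nrp1, Cd93, Cd36, Esm1, Sox17 and Emcn, in cells thinned to 5000 UMIs. Cells with at least 3 melanocytic, stromal or leukocyte markers were left out. No doublet caller was run, and cells with 3 or more markers of both lineages were left ungated. Cells at exactly 3 markers were 734 LEC and 234 BEC. Subset scores were means of standardized log counts per 10000, limited to 5 in either direction; the minimum of 0.5 and the order of gates were set after marker values, but not integrin values, had been seen. Named besides the 10 genes were the 4 most abundant members of each list, members at least 4-fold apart, and the 3 genes most correlated with each integrin gene; Mfge8 was named by its level in all cells. Positions came from GENCODE M21 on GRCm38, which held 27337 of the symbols. Ratios and their intervals were checked on simulated Poisson sums. These hold counting error alone, which the intervals assume, and no variation among cells, mice or libraries. Python 3.11.15, numpy 2.4.6, scipy 1.17.1, pandas 2.3.3, scanpy 1.11.5, python-igraph 0.11.9 and matplotlib 3.10.9 were used.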

Additional observations from a re-analysis of the deposited data

Results flagged for a closer look

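Cells outside the endothelial gates carried some integrin genes at levels whose intervals lay above those of both lineages. In the 224 melanocytic cells of the LEC sort, Itga1 was at 37.3 CPM (32.7 to 42.2), against 7.08 CPM in gated LEC and 25.0 CPM in gated BEC. Itgav was at 79.7 CPM (73.0 to 86.8) in them, against 55.6 CPM in gated LEC and 18.9 CPM in gated BEC, and Itgb5 at 22.2 CPM (18.7 to 26.1), against 1.93 CPM in gated LEC and 0.944 CPM in gated BEC. In the 34 stromal cells of the BEC sort, Itga1 was at 53.7 CPM (37.8 to 74.1), Itgb5 at 53.7 CPM (37.8 to 74.1), from 37 UMIs each, and Itgb1 at 386 CPM (341 to 436), against 272 CPM in gated LEC and 293 CPM in gated BEC. These cells passed an endothelial sort and are not a sample of the tumor or its stroma.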

How the results depend on the processing

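Directions were kept in 59 of 59 repeated ratios in all cells, 95 of 97 in gated cells and 30 of 30 subset ratios. The exceptions were Itga9, at a log2 ratio of -1.14 against 1.001, and Itgb3, at 0.29 against -0.43, in the 11 LEC of the BEC sort, from 2 and 7 UMIs. Subset ratios without the 1% of cells richest in a gene left the other gated cells untrimmed. For genes lower in a subset, that setting could hardly turn the direction. A ratio of CPM + 1 keeps the direction of the plain ratio by its nature. Size factors, which lowered every log2 ratio, could not turn one already below 0. Those repeats do not test the direction. Of 39 repeated counts, 34 stayed within 1.5 times the value reported. The count of integrin genes at least 2-fold apart in all cells, 3 as reported, was 1 at a minimum of 50 CPM, 5 with a minimum of 3 UMIs and 6 at 1.5-fold, and the 2 calls among other integrin genes became 0 at 50 CPM. Integrin genes with the larger share of cells in LEC, 4 at 5000 UMIs, were 2 without thinning. The 8 subset calls were 12 with a subset minimum of 1, which kept all 8, and 12 with Leiden clusters drawn without integrin genes, which kept 7. No cluster matched the Aplnr gate, so Itga2 there gave no value. The Leiden clusters also held cells outside the lineage gates. Itgb5 in gated cells had a log2 ratio of 0.25 as a mean over cells and 0.12 with Leiden clusters, against 1.03. Itga2 in gated cells was at -2.94 as a ratio of CPM + 1, against -5.63. Itga1 in gated cells was at -2.51 without the 1% of cells richest in it, against -1.82. That setting removed a larger part of the LEC than of the BEC with an Itga1 UMI, which tends to lower the ratio. The alternatives within 1 sort and the one without melanocytic, stromal and leukocyte cells were chosen after the data were seen.

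No paired analysis was possible because the columns carry no library number, and leaving out each library could not be run for the same reason. Libraries and sorts cannot be told apart from lineage except where both lineages were read in 1 sort. Itga2 in LEC and Itgb5 in gated cells rest on few UMIs. RNA levels say nothing of surface protein.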
